A study of Homo sapiens with 4 samples.

Results

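Cholesterol and fatty acid synthesis genes, together with the SREBP and LXR regulators that set their levels, were followed as 46 genes in MDA-MB-231 cells, an established line of human triple-negative breast cancer. They were taken by symbol from a table of 63677 genes. Those symbols had 49 rows, and the 3 rows left out were second entries for ACLY, EBP and NSDHL with 0 reads in each library. By role, 18 belong to the sterol branch, 18 to the fatty acid branch and 10 to a group of regulators, sterol transport and export. Cells received siRNA by Lipofectamine, which in siCt was a control and in siAxl a pool directed at AXL, a receptor tyrosine kinase, and 2 libraries of each group were sequenced. The comparison asks which transcripts differ when AXL is depleted. A knockdown by siRNA is partial, and with a single pool the loss of AXL and any other action of the siRNAs cannot be told apart. These are bulk libraries, in which fewer cells of a kind and less RNA per cell cannot be told apart.

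The libraries held between 39574387 and 44585773 reads. Values are normalized counts, the reads of a gene divided by the size factor of its library, and pairs of values are given for library 1 and then library 2. AXL fell from 29189 and 30617 normalized counts in siCt to 8658 and 7141 in siAxl, 26.4% of its siCt level (log2 fold change -1.93, SE 0.0918, limma adjusted p = 0.000585). Of the markers of the line, VIM, CD44 and KRT18 were abundant, and ESR1 and PGR had at most 3 reads in any library. CDH1, also a low marker, fell from 90.1 and 94.3 normalized counts in siCt to 36.9 and 22.6 in siAxl (log2 fold change -1.64, limma adjusted p = 0.00847). EPCAM, taken as a low marker, was nevertheless present at 565 to 771 normalized counts and not called (log2 fold change 0.32, limma adjusted p = 0.0513). PTPRC, CD3E and PECAM1, of leukocytes and endothelium, summed to between 7.77 and 16.7, with PECAM1 at 0. Of 7 genes that respond to transfected RNA, none was called (limma adjusted p between 0.0504 and 0.984), and their summed levels were 10082 and 11048 in siCt and 9520.0 and 10596 in siAxl.

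Cholesterol is built from acetyl-CoA through mevalonate, isoprenoids and squalene to lanosterol, which is then trimmed and reduced. Fatty acids are built from the same acetyl-CoA by carboxylation and condensation, and are elongated and desaturated once activated to acyl-CoA. Both routes are driven by the SREBP transcription factors, which SCAP escorts out of the endoplasmic reticulum when sterols are low and which INSIG proteins hold back when sterols are high. When sterols are in excess, the LXR receptors raise the exporters ABCA1 and ABCG1.

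All 46 genes passed the filter for low counts. A gene was called at a limma adjusted p (Benjamini-Hochberg) under 0.05 over the 16064 genes tested. Of the 46, 5 were called (10.9%), against 18.7% of all genes tested. SCD5 and FADS3, both of the desaturase group, rose in siAxl, and 10.8% of all genes tested were called higher. ACSL1, FASN and INSIG1 fell, and 7.91% of all genes tested were called lower. The same 5 members were called by edgeR and by DESeq2, and no others. In 41 of the 46 the log2 fold change was under 0.3 in size. Its median size was 0.11 over the members and 0.17 over all genes tested, with median standard errors of 0.0677 and 0.0891. The siCt and siAxl libraries did not overlap in 33 of the 46 (71.7%), against 61.2% of all genes tested. Of these, 19 were higher in siAxl (30.6% of all genes tested) and 14 lower (30.5%). For a single gene, an exact permutation test of 2 libraries against 2 can go no lower than p = 0.333, so the calls depend on the variance that limma pools over genes.

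**Figure D1:**
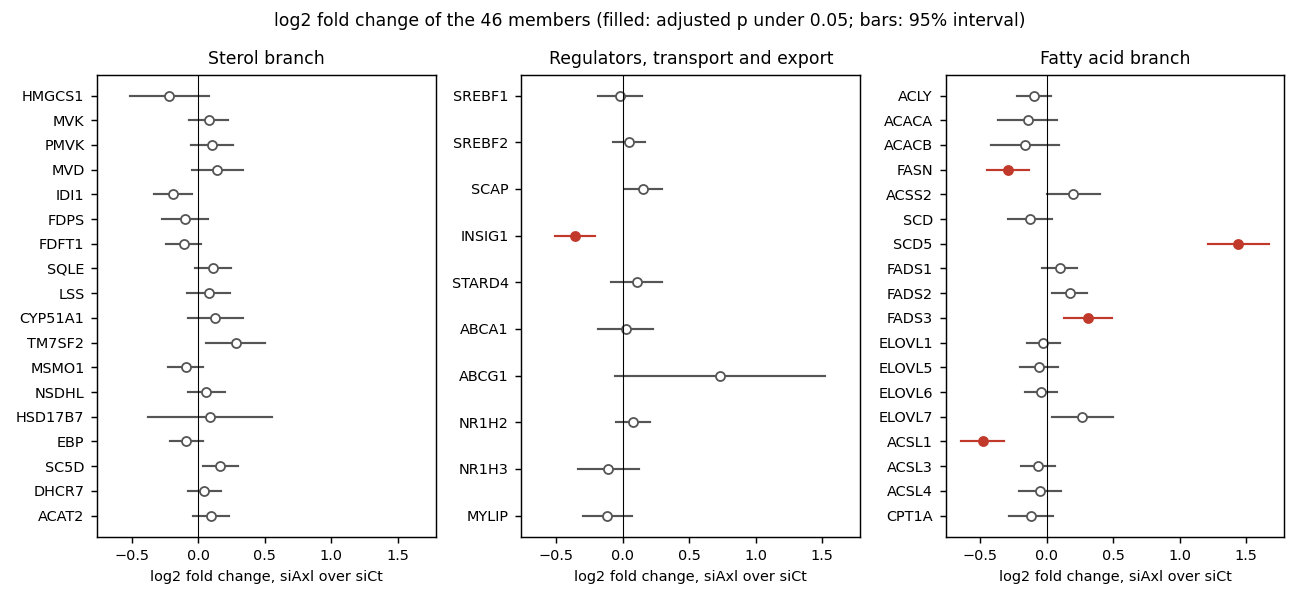
The log2 fold change of siAxl over siCt (x axis) is plotted for each of the 46 genes, with its 95% interval from limma as a bar, in panels by branch. Red points mark the 5 called genes, among which SCD5 stands apart at 1.44, and all 18 sterol genes lie between -0.22 and 0.28.

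In the sterol branch 0 of 18 genes were called by limma, edgeR or DESeq2, with 3 at an unadjusted p under 0.05 in limma, a mark that 5468 of the 16064 genes tested passed. In the fatty acid branch 4 of 18 were called (22.2%, against 18.7% of all genes tested), 2 in each direction. Among the regulators 1 of 10 was called. The difference between branches was not tested. The median log2 fold change was 0.076 in the sterol branch, -0.057 in the fatty acid branch and 0.036 among the regulators, beside -0.0022 over all genes tested. Library medians of each branch varied within a group by an SD of 0.037, 0.026 and 0.037 on the same scale. Summed over the sterol genes, normalized counts came to 88582 ± 3275 in siCt and 85966 ± 4478 in siAxl (SD, n = 2 in each), a difference smaller than the SD. Over the fatty acid genes they came to 223035 ± 6291 and 210612 ± 3432, or 94.4% of siCt, with no overlap between groups. Over the regulators they came to 58884 ± 689 and 54542 ± 2528, or 92.6% of siCt, also with no overlap. These sums weigh abundant genes most. In the fatty acid branch the mean of SCD went from 53636 to 49184, of FASN from 32410 to 26485 and of ACLY from 26936 to 25164. Of these, only FASN was called, and 6 of the 18 genes of the branch had a log2 fold change above 0.

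Desaturases put double bonds into acyl chains, and SCD and SCD5 are the stearoyl-CoA desaturases, which make oleate. The siCt libraries held 698 and 591 normalized counts of SCD5 and the siAxl libraries 1674 and 1819. The groups were far apart. The mean rose 2.71-fold, from 644 ± 76.1 to 1747 ± 102 (SD, n = 2 in each; log2 fold change 1.44, SE 0.0974, 95% interval 1.21 to 1.67, limma adjusted p = 0.00113). With any 1 library left out it was still called, at 1.32 to 1.56. For SCD, the far more abundant paralog, siCt libraries held 51623 and 55649 normalized counts and siAxl libraries 50966 and 47401. Both siAxl libraries of SCD lay below both siCt libraries, but SCD was not called (log2 fold change -0.12, 95% interval -0.29 to 0.040, limma adjusted p = 0.259). Per kb of exon, the level of SCD was 67.3 ± 11.5 times that of SCD5 in siCt and 22.6 ± 2.48 times in siAxl (SD, n = 2 in each). SCD5 made up 1.66% and 1.31% of both desaturases together in the siCt libraries, and 3.94% and 4.57% in the siAxl libraries.

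The promoters of these paralogs are shown because the pair moved apart, and those of INSIG1 and SREBF2 because they belong to the feedback on SREBP. The sequences are the 250 bases before the annotated start, from RefSeq (GRCh38.p14), written 5′ to 3′ on the strand of the gene. Capitals mark the SREBP core TCACNCCAC, the E-box CACGTG, to which SREBP can also bind, and the CCAAT box of NF-Y, a common partner of SREBP, each on either strand.
SCD5, chr4:82798797-82799046, minus strand: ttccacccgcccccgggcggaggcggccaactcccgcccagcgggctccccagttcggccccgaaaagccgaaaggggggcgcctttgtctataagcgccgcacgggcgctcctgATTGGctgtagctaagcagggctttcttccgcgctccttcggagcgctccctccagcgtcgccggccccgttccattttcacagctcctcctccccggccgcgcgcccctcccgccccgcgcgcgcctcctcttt
SCD, chr10:100346983-100347232, plus strand: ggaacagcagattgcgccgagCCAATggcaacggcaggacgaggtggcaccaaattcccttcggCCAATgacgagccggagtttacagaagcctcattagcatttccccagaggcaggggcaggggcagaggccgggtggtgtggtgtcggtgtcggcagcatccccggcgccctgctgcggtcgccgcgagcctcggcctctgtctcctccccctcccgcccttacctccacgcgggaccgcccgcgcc
INSIG1, chr7:155297628-155297877, plus strand: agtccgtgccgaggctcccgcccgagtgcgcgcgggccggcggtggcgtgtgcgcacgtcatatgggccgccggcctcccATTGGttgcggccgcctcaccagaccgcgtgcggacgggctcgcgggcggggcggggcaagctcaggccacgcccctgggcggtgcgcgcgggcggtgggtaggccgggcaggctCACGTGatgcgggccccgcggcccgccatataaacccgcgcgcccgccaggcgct
SREBF2, chr22:41832855-41833104, plus strand: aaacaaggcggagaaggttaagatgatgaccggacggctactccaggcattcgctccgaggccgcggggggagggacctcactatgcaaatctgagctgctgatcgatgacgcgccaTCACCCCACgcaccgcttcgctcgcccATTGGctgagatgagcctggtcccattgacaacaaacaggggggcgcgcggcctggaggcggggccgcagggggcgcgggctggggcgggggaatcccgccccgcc
The SCD5 promoter holds 1 CCAAT box, at -135 to -131 from the start, and that of SCD holds 2, at -229 to -225 and -186 to -182. INSIG1 has an E-box at -55 to -50 and a CCAAT box at -170 to -166, and SREBF2 has the SREBP core at -133 to -125 and a CCAAT box at -106 to -102. RefSeq promoters, which run to 50 bases after the start, were matched for 41 of the 46 genes, in 59 entries, and ABCG1, ACAT2, FASN, FDFT1 and SQLE had none. The SREBP core was in 1.13% of all 35116 promoters of this length and in 2 of the 59, those of SREBF2 and ACSL1. CACGTG was in 7.26% of all promoters and in 7 of the 59. CCAAT was in 34.6% of all promoters, and in 15 of 20 of the sterol branch, 14 of 27 of the fatty acid branch and 5 of 12 of the regulators. These are matches of letters and not measured binding.

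The 7-base word CACATCA was looked for in 3′ UTRs. It was chosen after values of these data were seen, for a shift of its carriers upward in siAxl, so its presence is given as a description only. In GENCODE release 29, which matched all members but ACACA, the word was in the 3′ UTR of 7 of 45 members (15.6%), against 16.2% of the genes tested with a 3′ UTR. These were SCD5, SREBF2, ABCA1, ACACB, ELOVL6, ELOVL7 and ACSL4, each with 1 copy, and of the 7 SCD5 was called. Over all genes tested, 2107 carried the word, of which 618 were called, 496 higher and 122 lower. The part of the word in the rise of SCD5 was not tested.

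**Figure D2:**
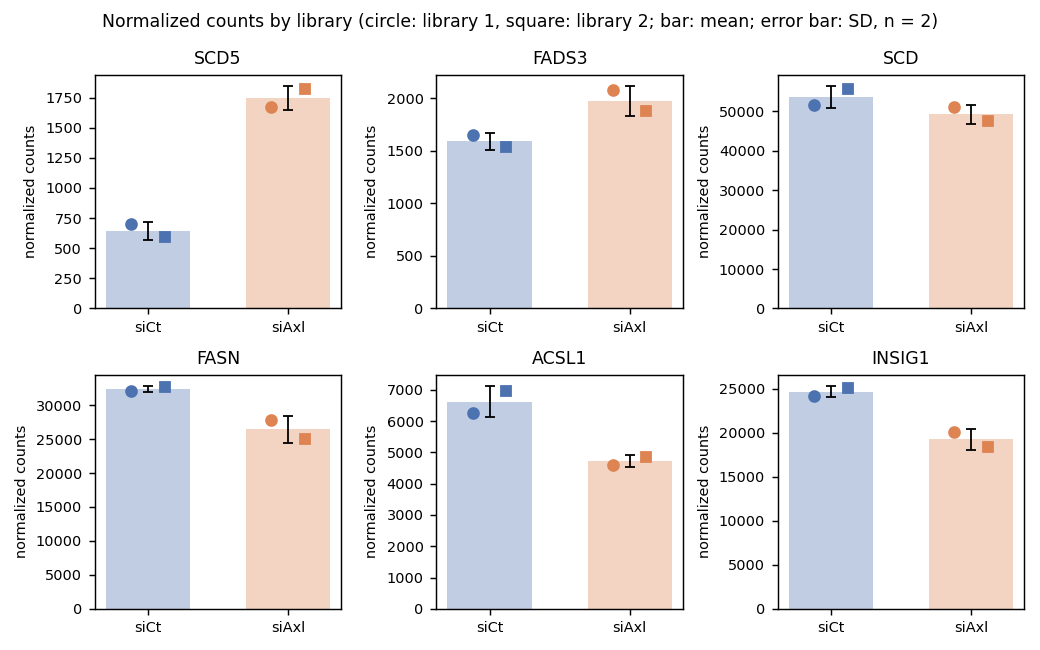
Normalized counts (y axis, from 0) of the 5 called genes and of SCD are plotted for siCt and siAxl, with circles for library 1, squares for library 2, bars for the mean and error bars for the SD (n = 2). The mean of SCD5 goes from 644 to 1747, and that of SCD from 53636 to 49184.

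FADS1 and FADS2 desaturate polyunsaturated chains, and FADS3 acts on sphingoid bases. The siCt libraries held 1647 and 1532 normalized counts of FADS3 and the siAxl libraries 2076 and 1873. FADS3 rose 1.24-fold (log2 fold change 0.31, SE 0.0761, limma adjusted p = 0.0320). This was a call at the margin. It was lost without siAxl 1 (0.24, adjusted p = 0.172), without siCt 2 (0.26, adjusted p = 0.0538), with every gene that had a read tested (adjusted p = 0.0973) and with scaling by library size alone (adjusted p = 0.0505). FADS2 had a log2 fold change of 0.17 (limma adjusted p = 0.0802) and FADS1 of 0.10 (adjusted p = 0.269). Neither was called, though both siAxl libraries lay above both siCt libraries in each. FADS1 and FADS2 share 490 exon bases on opposite strands, and the strand setting of the counting is not known. Among the 5 desaturases the groups overlapped in none, with 4 higher in siAxl and SCD lower, beside 61.2% of all genes tested without overlap.

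ACSL1 joins long-chain fatty acids to coenzyme A. The siCt libraries held 6270.2 and 6981 normalized counts and the siAxl libraries 4602 and 4868. ACSL1 fell to 71.5% of its siCt level, from 6626 ± 503 to 4735 ± 188 (SD, n = 2 in each; log2 fold change -0.48, SE 0.0693, limma adjusted p = 0.00605), and was called with each library left out in turn (-0.56 to -0.41). The related synthetases differed less, with log2 fold changes of -0.070 for ACSL3 (95% interval -0.20 to 0.058) and -0.053 for ACSL4, which prefers arachidonate (95% interval -0.21 to 0.11). Per kb of exon, ACSL1 made up 20.4% and 20.8% of the level of these 3 synthetases in the siCt libraries and 16.1% and 16.4% in the siAxl libraries. CPT1A is the gate by which acyl-CoA enters mitochondria for oxidation. Its normalized counts were 4267 and 4530.2 in siCt and 3834 and 4265 in siAxl, just without overlap (log2 fold change -0.12, limma adjusted p = 0.276).

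FASN, the synthase that makes palmitate, counted 32106 and 32713 in the siCt libraries and 27889 and 25082 in the siAxl libraries after normalization. FASN fell to 81.7% of its siCt level (log2 fold change -0.29, SE 0.0679, limma adjusted p = 0.0276). The call was lost without siAxl 2 (-0.22, adjusted p = 0.153), without siCt 2 (-0.28, adjusted p = 0.0547) and with every gene that had a read tested (adjusted p = 0.0869). ACLY, which splits citrate to acetyl-CoA, was at 26648 and 27224 normalized counts in siCt and 25122 and 25207 in siAxl, without overlap but not called (log2 fold change -0.10, limma adjusted p = 0.252). ACACA carboxylates acetyl-CoA, the committed step. It was at 7267 and 8796 normalized counts in siCt and 6944 and 7531 in siAxl, with overlapping groups (log2 fold change -0.14, limma adjusted p = 0.330). Without siCt 1, ACACA was called lower (-0.28, adjusted p = 0.0130). ACSS2, which activates acetate, had a log2 fold change of 0.20 (limma adjusted p = 0.153), and was called higher without siCt 1 (0.26, adjusted p = 0.0239). ACACB, the mitochondrial carboxylase, had -0.16 (adjusted p = 0.341).

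The elongases lengthen the chains made by FASN. ELOVL1, ELOVL5 and ELOVL6 had log2 fold changes of -0.027, -0.061 and -0.046. ELOVL7, the least abundant of them, had 0.27 (95% interval 0.035 to 0.50, limma adjusted p = 0.104) and was not called.

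In the sterol branch, 12 genes had a log2 fold change above 0 and 6 below. The groups did not overlap in 13 (72.2%), against 61.2% of all genes tested. Of these 13, 9 were higher in siAxl, and 30.6% of all genes tested were higher without overlap. HMGCS1, the synthase at the entry of the mevalonate route, was at 10160.4 and 8304 normalized counts in siCt and 8829 and 7051 in siAxl. Library 1 exceeded library 2 in each group by more than the group means differed, and the groups overlapped (log2 fold change -0.22, SE 0.126, 95% interval -0.52 to 0.079, limma adjusted p = 0.272). Each siAxl library lay below the siCt library of the same number, though nothing ties shared numbers to a day or culture. Without siCt 2, HMGCS1 was called lower (-0.36, adjusted p = 0.00372). HSD17B7, of the later steps, had the widest interval of the branch (-0.38 to 0.56), with 604 and 439 normalized counts in siCt and 652 and 459.9 in siAxl.

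**Figure D3:**
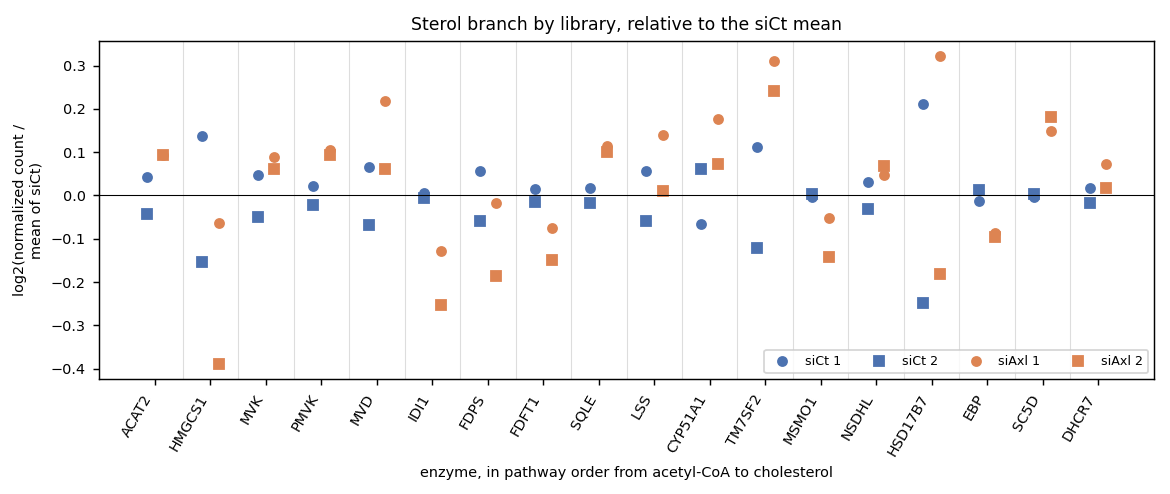
For each of the 18 sterol enzymes, in pathway order, the log2 ratio of each library to the siCt mean (y axis) is shown, with siCt in blue, siAxl in orange, circles for library 1 and squares for library 2. In HMGCS1, FDPS, LSS and HSD17B7 the libraries of a group lie further apart than the group means, whereas those of SC5D and EBP lie close together.

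FDFT1, the squalene synthase, was at 9182 and 8986 normalized counts in siCt and 8625 and 8187 in siAxl (log2 fold change -0.11, limma adjusted p = 0.203). SQLE, the squalene epoxidase, was at 2226 and 2170.3 in siCt and 2378 and 2357 in siAxl (0.11, adjusted p = 0.237). In both genes the groups did not overlap, and they lay in opposite directions. LSS closes the rings of lanosterol. It was at 9986 and 9225 normalized counts in siCt and 10586 and 9675 in siAxl, with overlap (log2 fold change 0.076, limma adjusted p = 0.486). DHCR7, a reductase of the last steps, was at 7203 and 7037 in siCt and 7484 and 7205 in siAxl (0.045, adjusted p = 0.611). The 95% interval of DHCR7, -0.082 to 0.17, holds changes of up to 1.13-fold upward.

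The 3 sterol genes with an unadjusted p under 0.05 were IDI1, SC5D and TM7SF2. IDI1, the isomerase of the isoprenoid units, had a log2 fold change of -0.19 (SE 0.0608, limma adjusted p = 0.0716) and was called lower with scaling by library size alone (-0.22, adjusted p = 0.0483). SC5D, the lathosterol desaturase, had 0.16 (SE 0.0547, adjusted p = 0.0783). TM7SF2, a sterol reductase, had 0.28 (SE 0.0948, adjusted p = 0.0833) and was called higher without siCt 1 (0.40, adjusted p = 0.00413). By step, the 5 genes that make mevalonate and its phosphates had a median log2 fold change of 0.094, and the 8 that act after lanosterol had 0.073. ACAT2, the thiolase of the first step, shares 397 exon bases with TCP1, transcribed the other way. A library held on average 10149.5 reads of TCP1 and 3914 of ACAT2. MVK shares 306 exon bases with MMAB in the same way. ACAT2 also shares 1141 exon bases with SOD2 and 1458 with SOD2-OT1, both on the opposite strand. CYP51A1 shares 2844 with AC000120.2 on its own strand, 79.4% of its exon bases. SOD2, SOD2-OT1 and AC000120.2 had no matching count under their GENCODE identifiers.

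INSIG1, which retains SCAP when sterols are high and is itself an SREBP target, was the called regulator. Its normalized counts were 24241 and 25139.7 in the siCt libraries and 20115 and 18399 in the siAxl libraries. The mean fell from 24690.2 ± 636 to 19257 ± 1213 (SD, n = 2 in each), to 78.0% of siCt (log2 fold change -0.36, SE 0.0643, limma adjusted p = 0.0122). The groups were well apart, yet the call was lost without siAxl 2 (-0.30, adjusted p = 0.0624) and with every gene that had a read tested (adjusted p = 0.0524). SREBF2, whose product mainly drives sterol genes, was at 9097 and 9248 normalized counts in siCt and 9566 and 9415 in siAxl (log2 fold change 0.049, 95% interval -0.072 to 0.17, limma adjusted p = 0.556). SREBF1, whose product leans to fatty acid genes, was at 7811 and 7382 in siCt and 7945 and 7077 in siAxl, with overlap (-0.018, 95% interval -0.19 to 0.15, adjusted p = 0.885). SREBF1 shares 556 exon bases with RAI1 on the opposite strand. SCAP had 0.16 (SE 0.0581, adjusted p = 0.107). Read counts show neither the cleavage of SREBP proteins nor their amount in the nucleus.

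ABCA1, which exports cholesterol, was at 3937 and 4709 normalized counts in siCt and 4486 and 4264 in siAxl, the siAxl libraries falling between those of siCt (log2 fold change 0.022, 95% interval -0.19 to 0.23, limma adjusted p = 0.886). ABCG1, also an exporter, was scarce, with 9 and 11 reads in siCt and 17 and 19 in siAxl (0.73, 95% interval -0.056 to 1.52, adjusted p = 0.174). The LXR receptor genes NR1H2 and NR1H3 had log2 fold changes of 0.077 and -0.11. NR1H3 shares 189 exon bases with ACP2 on the opposite strand, which was the more abundant. MYLIP, a ubiquitin ligase induced by LXR, had -0.12, and STARD4, a carrier of sterol between membranes, had 0.10. None of these 6 was called by limma, edgeR or DESeq2, and none had an unadjusted p under 0.05 in limma.

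Per kb of exon, the levels in siCt ran from 1.68 normalized counts (ABCG1) to 10003 (SCD) over the 45 matched genes. After SCD came INSIG1 at 6764 ± 174 and ACLY at 5163 ± 78.2 (SD, n = 2). MSMO1, a demethylase of the sterol route, at 4117, and ELOVL5, at 4113 ± 159, followed and did not differ beyond that spread. SCD, INSIG1 and ACLY led in siAxl too, with INSIG1 at 5276. SCD5 went from 150.1 to 407 per kb, from below CYP51A1, TM7SF2, FADS3, MVD and MVK, which were at 176 to 325 in siCt, to above them. Exon lengths are summed over all annotated isoforms, so these levels are approximate.

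**Figure D4:**
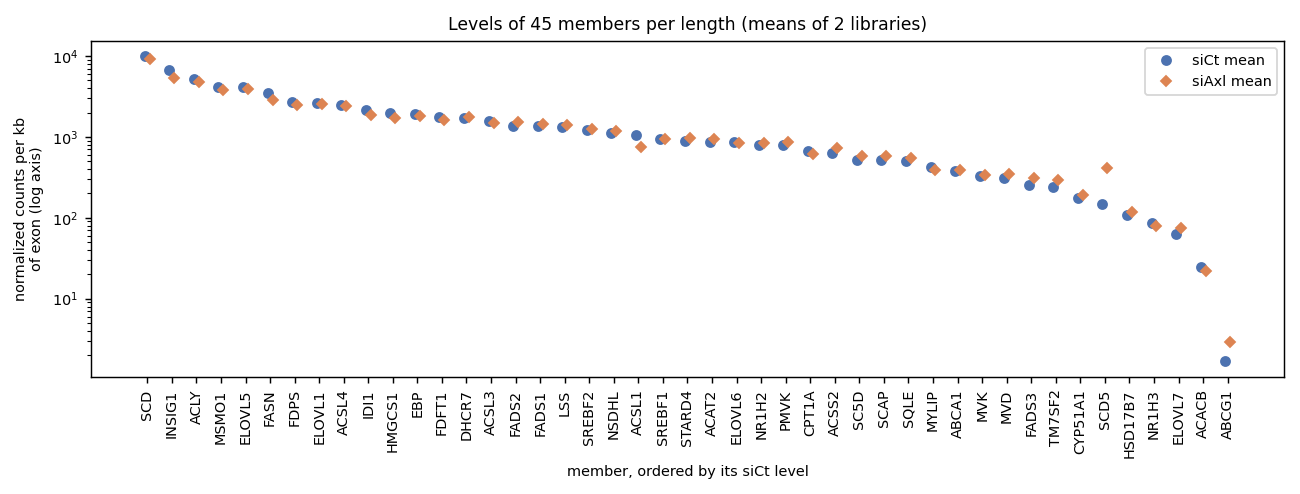
Mean normalized counts per kb of exon (y axis, log scale; n = 2 libraries) are shown for 45 genes in the order of their siCt level, with siCt as circles and siAxl as diamonds. The levels run from 10003 for SCD to 1.68 for ABCG1, and the symbols of SCD5 lie furthest apart.

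Further genes of these routes were taken as 7 lists by role. Of 12 genes of SREBP processing and sterol sensing, 4 rose and 1 fell (41.7% called, against 18.7% of all genes tested), with a median log2 fold change of 0.063. INSIG2, the paralog of INSIG1, rose from 2671 and 2551 normalized counts in siCt to 3670.3 and 3459 in siAxl (log2 fold change 0.45, SE 0.0613, limma adjusted p = 0.00519), while INSIG1 fell. MBTPS1, the first protease to cut SREBP, rose by 0.34 (limma adjusted p = 0.00859) and RNF139, a ubiquitin ligase of the endoplasmic reticulum, by 0.33 (adjusted p = 0.0288). INSIG2 and MBTPS1 were called with any 1 library left out, and RNF139 was not called without siAxl 1 or siAxl 2.

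Of 17 genes tested of sterol transport and esterification, 4 were called (23.5%, against 18.7% of all genes tested; median 0.10). Each was higher, and 10.8% of all genes tested were called higher. NCEH1, which hydrolyzes cholesteryl esters, rose by 0.49 (limma adjusted p = 0.00437) and was called with any 1 library left out. OSBPL5, a lipid transfer protein, rose by 0.41 (adjusted p = 0.0324), SCARB1, the HDL receptor, by 0.32 (adjusted p = 0.0126) and SOAT1, which esterifies cholesterol, by 0.27 (adjusted p = 0.0317). SCARB1 was not called without siAxl 1 or siAxl 2, nor OSBPL5 without siAxl 1 or siAxl 2 or siCt 2, nor SOAT1 without siAxl 1 or siAxl 2 or siCt 2. Of 5 LXR partners and targets, 1 rose and 1 fell (40.0% called, against 18.7% of all genes tested). The list median was 0.080. LPCAT3, which remodels phospholipids, rose by 0.29 (adjusted p = 0.0328), and was not called by DESeq2 or without siAxl 1 or siAxl 2 or siCt 2.

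Of 17 other genes tested of fatty acid synthesis, elongation and activation, 2 rose and 3 fell (29.4% called, against 18.7% of all genes tested). The list median of the log2 fold change was -0.022. ACSS3, a mitochondrial short-chain synthetase, rose by 0.65 (limma adjusted p = 0.00913), and MID1IP1, an activator of acetyl-CoA carboxylase, fell by 0.40 (adjusted p = 0.0101). Both were called with any 1 library left out. ACSS1, the mitochondrial acetate synthetase, fell by 0.42 (adjusted p = 0.0187) and PTPLB, a dehydratase of elongation, by 0.30 (adjusted p = 0.0136). ACSS1 was not called without siAxl 2, nor PTPLB without siAxl 1 or siAxl 2.

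**Figure D5:**
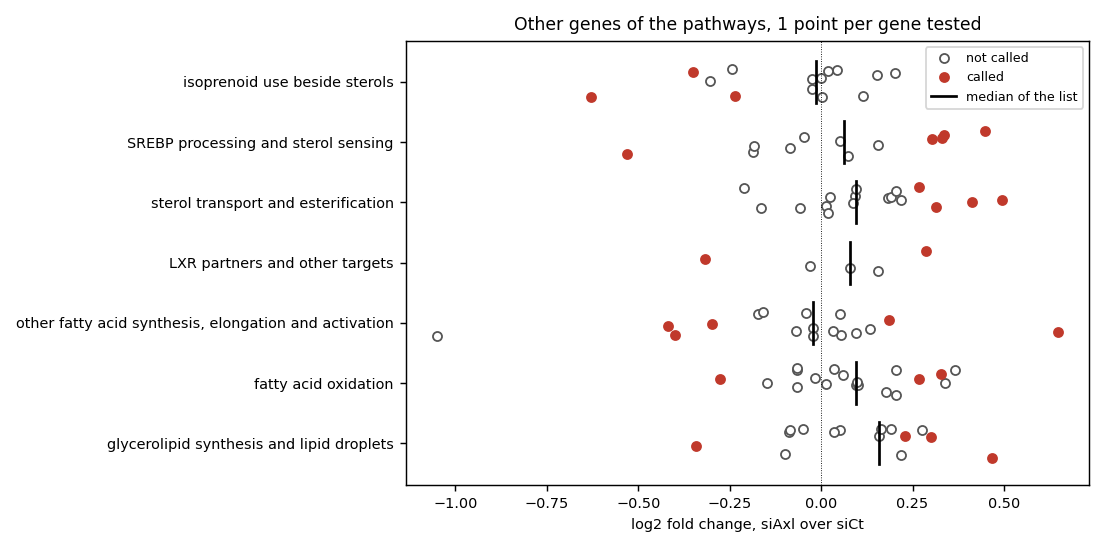
The log2 fold change of siAxl over siCt (x axis) is plotted for the genes tested in each of 7 lists, 1 point per gene with vertical jitter, with called genes in red and the list median as a black line. The 4 called genes of sterol transport and esterification lie to the right of 0.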

How the data were processed

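RNA-seq of 2 siCt and 2 siAxl libraries was used, grouped by their titles. Submitters' processing notes name CASAVA 1.8, TopHat2 2.0.10, HTSeq 0.5.3, DESeq2 1.4.5 and GRCh37, and the strand setting is not given in the sources used here. The signal the authors deposited is read counts per gene over a size factor. In each library 100% of values were whole multiples of 1 read (within 0.05 reads), so reads were recovered. The authors' own fold changes and p-values were not used.

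Genes passing filterByExpr were tested in limma (3.58.1, R 4.3.3, eBayes with trend) on normalized counts after log2(x + 1), which shrinks the changes of low genes, and p-values were adjusted by Benjamini-Hochberg. On recovered reads edgeR (4.0.16) called 3122 genes and DESeq2 (1.42.0) 2596. Scaling, pseudocount, filter, a replicate block and left-out libraries were varied. No source says that libraries were separate cultures, so p-values measure the spread between these libraries, which may be technical. GENCODE 29 gave exon lengths, overlaps and 3′ UTRs by Ensembl identifier. RefSeq coordinates are of another build than the files. Values per library are given for called members and for 14 entry or controlling genes, and up to 4 called genes per list are named, some of which are not reported here. Members and lists were chosen with earlier results of these data known.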

Additional observations from a re-analysis of the deposited data

How the results depend on the processing

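Over 12 alternatives and 46 members, 518 of 552 values kept their side of the threshold, 9 lost a call and 25 gained one. No called value changed sign. Of the uncalled, 8 values in 4 genes did, those of HSD17B7, SREBF1 and ACSL4 with a library left out, and those of ABCA1 with a library left out or scaling by library size alone. SCD5 and ACSL1 were called under all 12. Testing every gene with a read in any library gave 1097 calls among 27108 genes, against 3006 among 16064. It gave 2 calls in the fatty acid branch, 0 among the regulators and 12 in the 7 lists, against 4, 1 and 26. Scaling by library size alone gave 1 sterol call and a fatty acid median of -0.086, with -0.031 over all genes. Over all genes it gave 1536 higher and 1745 lower calls, against 1735 higher and 1271 lower calls. With 1 library left out, calls ran from 1301 to 3900 in all, 0 to 1 in the sterol branch, 2 to 6 in the fatty acid branch, 0 to 1 among the regulators and 10 to 32 in the lists. Without siAxl 1 there were 1301 in all and 11 in the lists, and without siAxl 2 1518 and 10, while the fewest fatty acid calls came without siCt 2. The medians ran from 0.027 to 0.11 (sterol), from -0.10 to -0.030 (fatty acid) and from -0.0024 to 0.063 (regulators). The fits with a library left out hold fewer libraries, and the wider filter tests more genes. The cause of the changed counts was not tested.

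Libraries share numbers across groups, which nothing ties to a day or culture. Deviations of same-numbered libraries correlated at 0.621 across 12088 genes, which are not independent, and mitochondrial reads were 3.70% and 3.78% in libraries 1 and 2.11% and 2.28% in libraries 2. With the replicate block, 7310 of all 16064 genes tested were called. In the sterol branch 10 of 18 were called (4 higher, with SC5D and TM7SF2 among them, and 6 lower, with HMGCS1 and IDI1). Calls came to 12 of 18 in the fatty acid branch, 3 of 10 among the regulators and 52 of the 99 genes tested in the lists.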

Other observations

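Of 14 genes tested that use isoprenoids beside sterols, 3 were called (limma; 21.4%, against 18.7% of all genes tested; median log2 fold change -0.013). Each was lower, and 7.91% of all genes tested were called lower. PDSS1, of the ubiquinone tail, fell from 556 and 560.2 normalized counts in siCt to 370.0 and 352 in siAxl (log2 fold change -0.63, limma adjusted p = 0.00555), and was called with any 1 library left out. RABGGTB, of the transferase that prenylates Rab proteins, fell by 0.35 (adjusted p = 0.0335) and was not called without siAxl 2. ZMPSTE24, a protease of prenylated proteins, fell by 0.23 (adjusted p = 0.0319) and was not called without siAxl 1 or siAxl 2 or siCt 2.

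Of 19 genes of fatty acid oxidation, 2 rose and 1 fell (15.8% called, against 18.7% of all genes tested). The list median of the log2 fold change was 0.10. PPARG, a fatty acid receptor, rose by 0.33 (limma adjusted p = 0.0161) and DECR1, which reduces unsaturated acyl-CoA, by 0.27 (adjusted p = 0.0336). ACADM, the medium-chain dehydrogenase, fell by 0.28 (adjusted p = 0.0410). Of 15 genes tested of glycerolipid synthesis and lipid droplets, 3 rose and 1 fell (26.7% called, against 18.7% of all genes tested). The list median was 0.16. DGAT2, which adds the last acyl chain of triglyceride, rose by 0.47 (adjusted p = 0.0154), AGPAT2 by 0.30 (adjusted p = 0.0164) and LPIN2 by 0.23 (adjusted p = 0.0290). GPAM, which adds the first acyl chain, fell by 0.34 (adjusted p = 0.0236). Each of these 7 lost its call with some library left out, PPARG without siAxl 1, DECR1 without siAxl 1 or siAxl 2 or siCt 1, ACADM without siAxl 1 or siAxl 2 or siCt 2, DGAT2 without siAxl 1, AGPAT2 without siAxl 1 or siAxl 2, LPIN2 without siAxl 1 or siAxl 2 or siCt 2 and GPAM without siAxl 1 or siAxl 2 or siCt 2.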
